A study of Mus musculus with 12 samples.

Results

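Antigen presentation genes of the major histocompatibility complex (MHC) were examined in mouse hearts with and without the mitochondrial assembly factor Sdhaf4. The set was a list of 10 genes matched by gene name, 5 of the class II route (H2-Aa, H2-Ab1, H2-Eb1, Cd74 and Ciita) and 5 of the class I route (H2-D1, H2-K1, B2m, Tap1 and Tap2). Of these 10 genes, 9 had a row of that name among the 43686 rows of the count table, and all 9 passed the filter on low counts. No row carried the name H2-D1, so its named gene was not analysed here. Sdhaf4 assists the assembly of succinate dehydrogenase, which is complex II of the respiratory chain. RNA was taken from the ventricular wall of 6 WT and 6 KO mice, all labelled C57BL/6 and 2 months old, and each heart gave 1 library. The study's text gives 6 weeks as the age of the sequenced hearts, which differs from the labels. KO mice carried floxed Sdhaf4 alleles (Sdhaf4 fl/fl) together with the Ckmm-Cre transgene, and the labels name their genotype Sdhaf4-/-. WT mice were littermates with the same floxed alleles and no Cre, so the groups differed by the transgene as well as by the deletion. The muscle creatine kinase promoter drives Cre in cardiac and skeletal muscle, so Cre was not directed at the endothelial cells, fibroblasts and leukocytes of the heart, and Sdhaf4 was not measured by cell type. The question here was whether class I and class II message changed in the KO heart, and whether the classes changed alike.

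MHC class I molecules stand on nearly every nucleated cell and show peptides cut from the cell's own proteins to CD8 T cells. A heavy chain such as H2-K1 or H2-D1 pairs with the light chain B2m, and the peptide is carried into the endoplasmic reticulum by the Tap1-Tap2 transporter. MHC class II molecules are made mainly by dendritic cells, macrophages and B cells and show peptides from engulfed material to CD4 T cells. H2-Aa and H2-Ab1 are the α and β chains of the mouse I-A molecule, H2-Eb1 is the β chain of I-E, and Cd74 is the invariant chain that fills the groove until the peptide is loaded. C57BL/6 mice lack a working I-E α chain, so their H2-Eb1 message has no surface partner. Ciita is the transcriptional switch for class II genes, and Nlrc5 has the corresponding role for class I genes. Both factors have no DNA-binding domain of their own and sit on a shared set of promoter boxes, and interferon γ induces both routes.

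The promoter boxes can be read in the members' own sequences, which are shown because genes of both classes carry them. RefSeq promoters (build GRCm38.p6, reaching from 250 bases before to 50 bases after the start site) were found for 6 of the 10 genes: H2-Aa, H2-Eb1, H2-D1, H2-K1, B2m and Tap1. In the lines below, capitals mark GCAAC (the core of the X1 box), TGANG (the start of the X2 box), ATTGG (the Y box) and an interferon-response-like run, written GAAANNGAAA in B2m and as the reverse complement of GAANNGAAA in H2-K1 and H2-D1.
H2-Aa: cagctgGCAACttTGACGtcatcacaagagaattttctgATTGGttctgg
H2-Eb1: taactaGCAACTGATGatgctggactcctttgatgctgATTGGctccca
H2-K1: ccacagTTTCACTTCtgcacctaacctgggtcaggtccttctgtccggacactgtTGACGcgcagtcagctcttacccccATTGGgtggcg
H2-D1: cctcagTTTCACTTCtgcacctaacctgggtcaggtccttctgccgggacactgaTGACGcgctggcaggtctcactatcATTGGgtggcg
B2m: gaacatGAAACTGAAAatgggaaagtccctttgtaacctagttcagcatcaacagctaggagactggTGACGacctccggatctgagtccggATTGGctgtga
These windows are chr17:34287861-34287910 on the minus strand for H2-Aa, chr17:34305770-34305818 on the plus strand for H2-Eb1, chr17:34000353-34000443 on the minus strand for H2-K1, chr17:35262938-35263028 on the plus strand for H2-D1 and chr2:122147542-122147644 on the plus strand for B2m, all in GRCm38.p6 and all upstream of the annotated start.

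TGANG followed after 19 to 22 bases by ATTGG stood in 5 of the 6 promoters found, on the strand of the gene. The spacer was 21 bases in H2-Aa, 22 in H2-Eb1 and 20 in H2-K1, H2-D1 and B2m. In H2-Eb1 the marked TGATG overlaps a later TGATG that lies 19 bases from ATTGG, and which of them starts the X2 box was not settled. Over both strands, TGANG and ATTGG at such a distance were present in 1.19% of the 32851 promoters in the table. GCAAC within 3 bases of TGANG was found in H2-Aa and H2-Eb1, and in 0.871% of all promoters. The run GAAANNGAAA was found in B2m and in 3.44% of promoters, and GAANNGAAA in H2-K1 and H2-D1 and in 7.52% of promoters. In the Tap1 window only ATTGG was matched, on the opposite strand, a pentamer that 37.4% of promoters hold. These patterns were chosen after the promoters had been read, and a match describes letters and shows no binding.

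Sdhaf4 itself was first checked. It lay between 14.3 and 30.3 CPM (counts-per-million units, after scaling by the TMM library factors) in WT hearts and between 2.25 and 2.73 CPM in KO hearts, a log2 fold change of -3.39 (SE 0.16, adjusted p = 1.95e-10, edgeR quasi-likelihood test). WT heart 6 held the lowest WT level, and the other WT hearts lay at 24.1 CPM or more. The libraries held 23747014 to 27159228 counts in WT and 26542930 to 31393393 in KO hearts, so that the least abundant member, Ciita, rested on 24 to 69 counts per heart and every other member on at least 470. KO heart 3 also stood apart, with 18600 CPM of the cardiomyocyte myosin Myh6 against 12500 to 14600 in the other KO hearts. The list of cardiomyocyte markers summed to 54649 to 60191 CPM in WT and 46908 to 64212 in KO hearts, so the labelled tissue carried its defining messages.

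Levels were compared between genes per transcript length, in the deposited FPKM (fragments scaled to transcript length and library size). B2m was the most abundant member in WT hearts at 457 ± 135 FPKM (SD, n = 6), and H2-K1 followed at 333 ± 92.9. H2-Aa (49.6 ± 14.9), Cd74 (49.6 ± 11.3), H2-Ab1 (46.9 ± 13.9), Tap2 (34.8 ± 4.78) and H2-Eb1 (31.4 ± 7.45) formed a middle group in which the WT ranges of all neighbours overlapped. Tap1 stood lower at 9.86 ± 2.10 and Ciita lowest at 0.434 ± 0.0961 FPKM, each below the WT range of the gene above it. In KO hearts the order was the same, from B2m at 529 ± 110 and H2-K1 at 418 ± 79.1 to Tap1 at 13.4 ± 3.30 and Ciita at 0.356 ± 0.108 FPKM. B2m and H2-K1 overlapped in range, although B2m was the higher of the pair in 6 of 6 WT hearts.

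**Figure D1:**
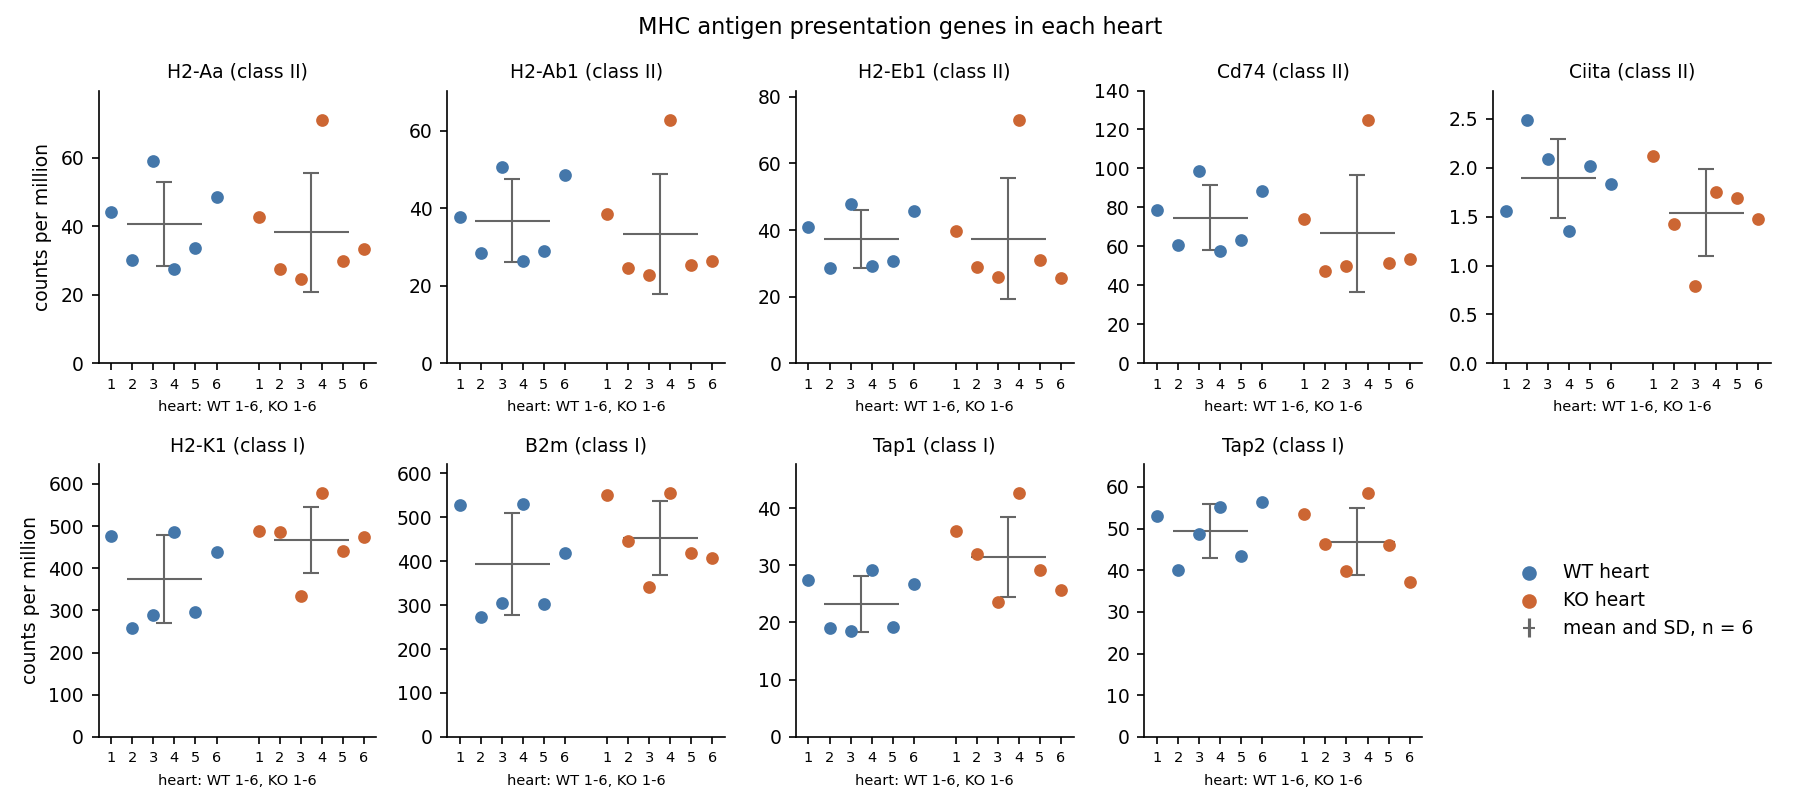
CPM (y axis, linear from 0) of the 9 genes in each of 6 WT and 6 KO hearts (x axis), with the group mean and SD in grey. KO heart 4 was the highest of all 12 hearts for H2-Aa, H2-Ab1, H2-Eb1 and Cd74, and in each panel the WT and KO points overlapped.

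No class II gene was called different between KO and WT hearts. None of the 5 passed an adjusted p of 0.05 in the edgeR fit over all 17155 rows tested, where 51.1% of rows did, with 25.6% higher and 25.5% lower in KO hearts. Their log2 fold changes ran from -0.29 for Ciita to 0.01 for H2-Eb1, with a median of -0.14 beside 0.00 for all rows tested. The 95% intervals of all 5 covered 0 and reached from -0.78 to 0.62. Of the 5 genes 0 had an unadjusted p under 0.05 in edgeR, and 0 were called by DESeq2 or limma-voom.

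H2-Aa (minus strand, chromosome 17, 35575840 to 35580923 in the coordinates of the count table) lay at 27.6, 38.9 and 59.2 CPM in WT hearts and 24.6, 31.6 and 71.1 in KO hearts as lowest, median and highest. KO heart 4 held the highest value and the other 5 KO hearts lay within or below the WT range. The log2 fold change was -0.09 (SE 0.29, 95% interval -0.72 to 0.55, adjusted p = 0.823, edgeR). H2-Ab1, its partner chain (plus strand, 35554880 to 35562569 of the same chromosome), gave 26.5, 33.4 and 50.6 CPM in WT and 22.8, 25.9 and 62.9 in KO hearts. Its log2 fold change was -0.14 (SE 0.28, 95% interval -0.77 to 0.49, adjusted p = 0.713, edgeR). As for H2-Aa, only KO heart 4 exceeded the WT hearts.

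H2-Eb1 (plus strand, chromosome 17, 35598911 to 35610672), which encodes the β chain without a partner in this strain, was transcribed at 28.7, 35.9 and 47.8 CPM in WT and 25.6, 30.1 and 73.1 CPM in KO hearts. The KO and WT means, 37.4 ± 18.2 and 37.2 ± 8.67 CPM, were nearly the same, and the log2 fold change was 0.01 (SE 0.28, adjusted p = 0.981, edgeR). Its sign turned with the settings and its size followed KO heart 4: without that heart the value was -0.29 (adjusted p = 0.169, edgeR). Cd74, the invariant chain (plus strand, chromosome 18, 62262211 to 62303090), lay at 57.8, 70.8 and 98.9 CPM in WT and 47.2, 52.5 and 125 CPM in KO hearts. The log2 fold change was -0.16 (SE 0.26, 95% interval -0.73 to 0.41, adjusted p = 0.642, edgeR), and without KO heart 4 it was -0.43 (adjusted p = 0.0519, edgeR). In 4 of the 6 KO hearts Cd74 lay below every WT heart, and in KO heart 4 above all of them.

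Ciita, the class II switch (plus strand, chromosome 16, 7434832 to 7487394), was the least abundant member, at 1.35, 1.93 and 2.49 CPM in WT and 0.795, 1.59 and 2.12 CPM in KO hearts. KO heart 3 was the lowest and no KO heart exceeded the WT range. The log2 fold change was -0.29 (SE 0.23, 95% interval -0.78 to 0.20, adjusted p = 0.309, edgeR). Its interval overlaps Dexi on the opposite strand, a gene with 473 to 863 counts per heart against 24 to 69 for Ciita, and the strand setting of the counting was not stated, so reads of the pair may have been mixed.

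Of the 4 class I genes, Tap1 passed the test, higher in KO hearts, and H2-K1, B2m and Tap2 did not. Among all rows 51.1% were called and 25.6% were called higher, beside which 1 of 9 members was called. No member passed the stricter thresholds of the study (adjusted p of 0.005 and an absolute log2 fold change of 1) in edgeR, DESeq2 or limma-voom, while 10.2% of rows passed them in edgeR, and 1 member had an unadjusted p under 0.05. For no member were the WT and KO hearts fully separated, while 30.1% of rows were. The median log2 fold change of the class I genes was 0.26.

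Tap1, a subunit of the peptide transporter (plus strand, chromosome 17, 35480414 to 35491366), lay at 18.5, 23 and 29.1 CPM in WT and 23.5, 30.6 and 42.6 CPM in KO hearts. All 6 KO hearts were above the WT median and 4 were above every WT heart. Its log2 fold change was 0.43 (SE 0.16, 95% interval 0.08 to 0.78, adjusted p = 0.0383, edgeR), and the exact permutation test of log2 CPM gave p = 0.0411 (6 against 6, two-sided). The call was lost when WT heart 2, 3 or 5 or KO heart 1, 2 or 4 was left out, with adjusted p between 0.0611 and 0.0872 in edgeR, and the direction was kept in all of these fits. Tap1 shares its upstream region with Psmb9, an immunoproteasome subunit read from the opposite strand, whose log2 fold change was -0.08 (SE 0.15, adjusted p = 0.698, edgeR). The annotated spans of the pair overlap at their ends, with 247 to 476 counts per heart for Psmb9 and 470 to 1239 for Tap1. As for Ciita, reads of the pair may have been mixed there.

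Tap2, the other half-transporter (plus strand, chromosome 17, 35500069 to 35514288), lay at 40.1, 50.8 and 56.3 CPM in WT and 37.3, 46.3 and 58.5 CPM in KO hearts. With a log2 fold change of -0.07 (SE 0.11, 95% interval -0.31 to 0.17, adjusted p = 0.617, edgeR) it had the narrowest interval of the 9 members. The difference in response between the partners of the transporter was not tested.

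H2-K1, the K heavy chain (minus strand, chromosome 17, 35236550 to 35247973), lay at 258, 368 and 485 CPM in WT and 335, 480 and 578 CPM in KO hearts. KO hearts 1, 2 and 4 exceeded every WT heart, and 5 of 6 exceeded the WT median. The log2 fold change was 0.32 (SE 0.18, 95% interval -0.07 to 0.72, adjusted p = 0.159, edgeR), which did not pass. H2-K1 has near-identical relatives, and how the counting treated reads that fit several of them was not given in the sources used here, so its level is uncertain. B2m, the light chain (plus strand, chromosome 2, 129195593 to 129200990), lay at 274, 362 and 531 CPM in WT and 342, 432 and 555 CPM in KO hearts. Its log2 fold change was 0.20 (SE 0.19, 95% interval -0.22 to 0.63, adjusted p = 0.410, edgeR). The WT hearts were uneven in both genes: WT hearts 1, 4 and 6 held 439 to 485 CPM of H2-K1 and WT hearts 2, 3 and 5 held 258 to 296, and B2m was likewise 419 to 531 and 274 to 305.

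An unannotated locus described in the table as the α chain of H-2D(B) (Novel00968, plus strand, chromosome 17, 36772158 to 36776611) was looked up after its values were seen, since no row was named H2-D1. It lay between 79.5 and 141 CPM in WT and between 96.1 and 150 CPM in KO hearts, and its log2 fold change was 0.22 (SE 0.15, adjusted p = 0.251, edgeR). It was 1 of 7 unannotated loci on chromosome 17 that the table describes as class I heavy chains. Of these 7 loci 2 passed the test, both higher in KO hearts, beside 25.6% of all rows called higher. They were Novel00972 and Novel01044, both described as a Q-region heavy chain. Novel01044 (minus strand, 36925409 to 36926409) lies within the span of Novel00972 (plus strand, 36925377 to 36965240). Novel01045 also overlaps Novel00972, and Novel01043 overlaps Novel00969, each on the opposite strand. With the strand setting of the counting not stated, overlapping loci may share reads, so the 2 calls may not be separate. The call of Novel00972 (adjusted p = 0.0477, edgeR) was lost on leaving out any heart other than WT heart 1, WT heart 4 or KO heart 3. Reads of the named heavy chains may be divided among these loci.

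**Figure D2:**
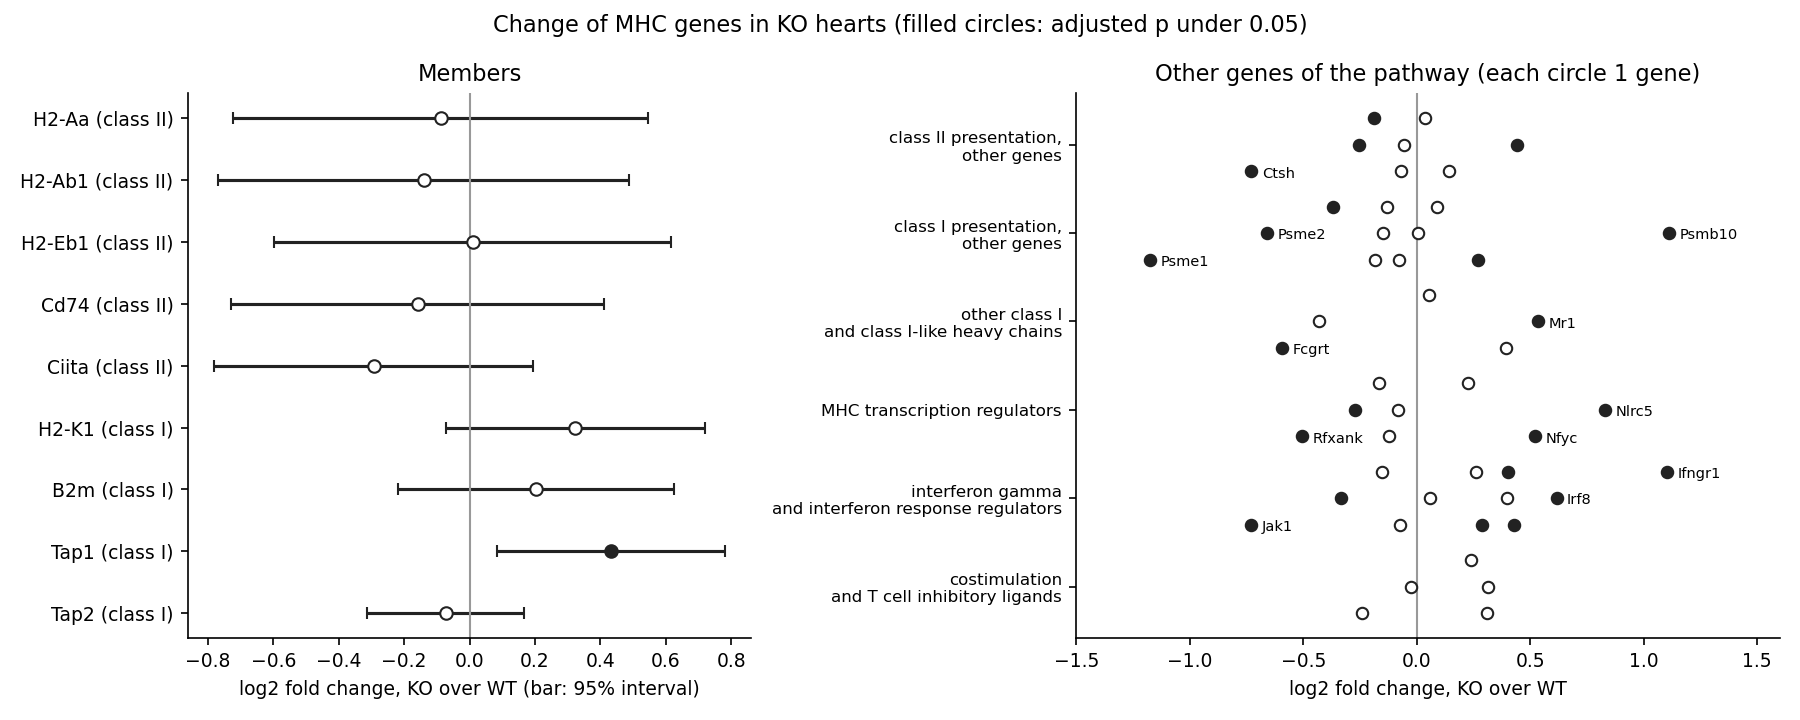
Left, log2 fold change (x axis, KO over WT) of the 9 genes with 95% intervals. Right, the same value without intervals for every tested gene of 6 lists of the pathway (rows), with 1 circle per gene. Filled circles passed an adjusted p of 0.05, and Tap1 was the filled member. Among the filled circles farther from 0 than Tap1 were Psmb10, Nlrc5 and Ifngr1 above 0 and Psme1, Jak1 and Ctsh below 0.

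Class I was then set against class II within each heart, so that scaling between libraries cancelled. The summed class II message was 191 ± 48.0 CPM in WT and 177 ± 81.0 in KO hearts (SD, n = 6 each), and the summed class I message was 840 ± 229 and 999 ± 171 CPM. The ratio of class I to class II sums lay at 2.55, 4.11 and 7.72 in WT and 3.70, 6.34 and 7.80 in KO hearts as lowest, median and highest, and these ranges overlapped. KO heart 4 had the lowest ratio of its group despite the highest class I sum of all hearts, 1234 CPM, because its class II sum of 334 CPM was also the highest. WT heart 4 had the highest ratio of its group, with 1100 CPM of class I and 142 CPM of class II.

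**Figure D3:**
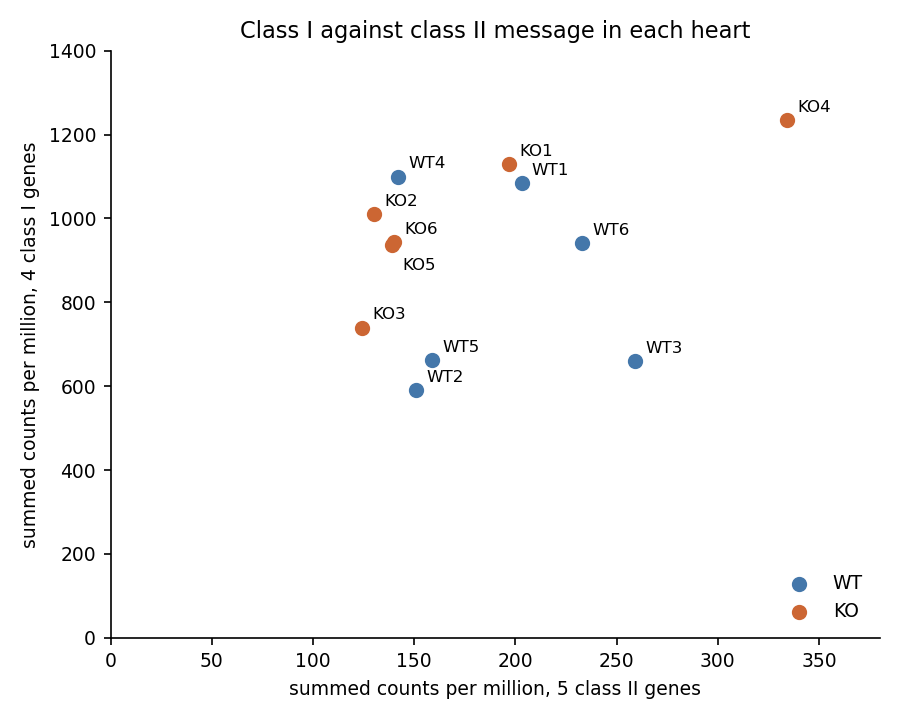
Summed CPM of the 5 class II genes (x axis) and the 4 class I genes (y axis), each point 1 heart. WT hearts spread along both axes, 5 of 6 KO hearts lay between 124 and 197 on the class II axis, and KO heart 4 stood alone at 334 and 1234.

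Each of the 4 class I genes was paired with each of the 5 class II genes, and the log2 ratio of a pair was compared between genotypes by a two-sided exact permutation test. In 19 of the 20 pairs the ratio was higher in KO hearts, with differences from -0.01 to 0.75, though the pairs share genes and are not independent. None of the 20 passed after adjustment over the pairs, the smallest adjusted value being 0.192. Before adjustment, 3 pairs had p under 0.05, all with Tap1. Tap1 over Cd74 rose from a mean log2 ratio of -1.67 ± 0.46 to -1.02 ± 0.33 (exact permutation p = 0.0195, n = 6 against 6), Tap1 over Ciita had p = 0.0303 and Tap1 over H2-Ab1 p = 0.0346 in the same exact test. Ratios with Tap2 moved least, by -0.01 to 0.24 with exact p of 0.346 or more. The outcome rested on WT heart 4: without it, 8 of the 20 pairs passed the adjusted threshold.

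The members were more variable between hearts than most genes. The coefficient of variation of CPM was 22.4% to 30.1% in WT hearts and 44.9% to 48.7% in KO hearts for H2-Aa, H2-Ab1, H2-Eb1 and Cd74, against medians of 10.1% in WT and 11.7% in KO hearts over rows with a mean of at least 1 CPM. For H2-K1, B2m and Tap1 it was 21.0% to 29.6% in WT and 16.9% to 22.3% in KO hearts, and for Tap2 13.3% and 17.1%. KO hearts differed among themselves 2.64-fold to 2.90-fold in these class II genes, of which the top value was KO heart 4 in each.

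These differences between hearts were shared within a class. Correlations were taken over 12 hearts on log2 CPM centred within genotype, for all 36 pairs of members, with an exact permutation of hearts within genotype and adjustment over the 36. H2-Aa, H2-Ab1, H2-Eb1 and Cd74 were nearly proportional, with Pearson r of 0.949 to 0.988 and Spearman rho of 0.790 to 0.993 in their 6 pairs. H2-Aa with H2-Ab1 gave r = 0.983 (permutation p = 1.93e-06, the smallest this test can give, adjusted p = 6.94e-05) and rho = 0.993 (permutation p = 1.93e-06). Without the 2 hearts farthest from the median, KO heart 4 among them, the 6 r values were still 0.881 to 0.978. Among the class I genes r ran from 0.764 for H2-K1 with Tap2 (permutation p = 0.00472, adjusted p = 0.0142) to 0.951 for H2-K1 with B2m (permutation p = 3.67e-05, adjusted p = 0.00033; rho = 0.979, permutation p = 2.51e-05), and all 6 pairs passed.

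Between the classes the relation was looser. The 20 cross-class r values ran from -0.05 to 0.759 with a median of 0.384, and 1 passed, H2-Eb1 with Tap2 (r = 0.759, permutation p = 0.00647, adjusted p = 0.0179; rho = 0.734, permutation p = 0.0147; r = 0.777 without the 2 farthest hearts). Within the WT hearts the class I genes H2-K1, B2m and Tap1 showed r of -0.14 to 0.19 with the class II genes other than Ciita, whereas within the KO hearts r was 0.679 to 0.906. For Tap2 with the same class II genes, r was higher in WT hearts, at 0.316 to 0.501, and was 0.782 to 0.892 in KO hearts. The difference between the genotypes in these r values was not tested. KO heart 4 was the highest KO heart in each of these genes and was not left out of the KO values. Ciita did not follow its class, with r of 0.367 to 0.456 with the other class II genes and permutation p of 0.183 or more. Against the class I genes its r was -0.82 to -0.95 within the 6 WT hearts and 0.650 to 0.858 within the 6 KO hearts, values that rest on its 24 to 69 counts and are given as a description.

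**Figure D4:**
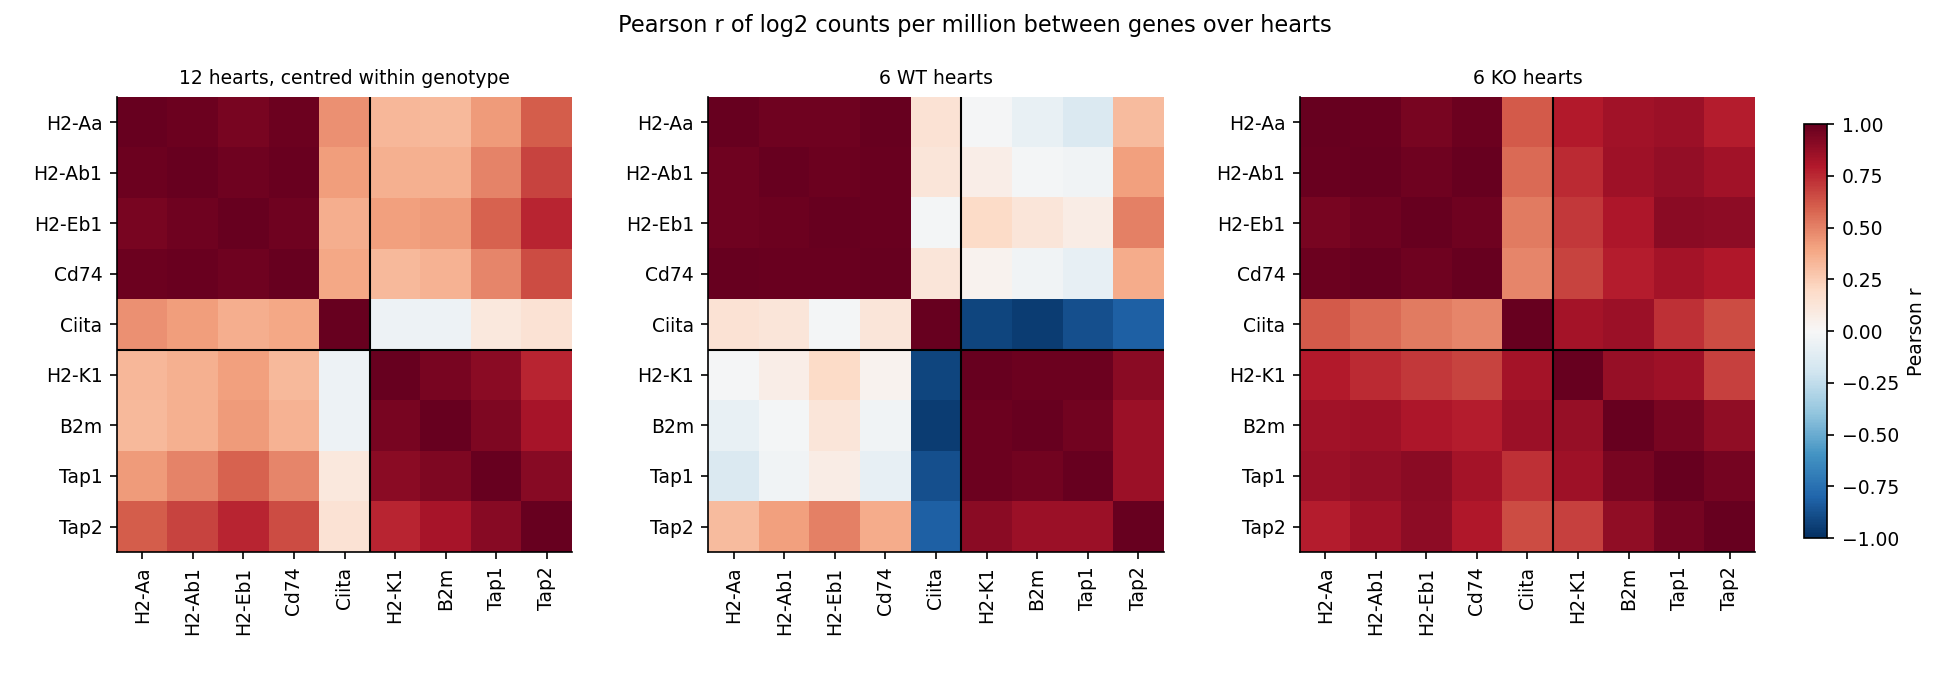
Pearson r of log2 CPM for each pair of the 9 genes (rows and columns; colour from -1 in blue to 1 in red), over 12 hearts centred within genotype, over the 6 WT hearts and over the 6 KO hearts. Black lines part class II from class I, and the within-class blocks are red apart from Ciita. In the cross-class block of the WT hearts, Ciita is blue (r of -0.82 to -0.95). There H2-K1, B2m and Tap1 are pale with the other class II genes, and Tap2 is light red (r of 0.316 to 0.501).

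The genes with the most similar pattern over the 12 hearts were sought among 14789 rows with a mean of at least 1 CPM, with r against the class mean as the measure and no test. Nearest to class II were Sh3bgrl3 (r = 0.938), an unnamed row on chromosome 8 (MGP_C57BL6NJ_G0034164, r = 0.901), Ctcf (r = 0.899), Slc44a1 (r = 0.877) and Mfap3 (r = 0.877). Nearest to class I were an unnamed row on chromosome 17 (MGP_C57BL6NJ_G0040733, r = 0.935), Novel00969 (r = 0.933), which the table describes as the class I heavy chain H2-Ld, Gm9887 (r = 0.923), Tpm3 (r = 0.920) and Novel00968 (r = 0.904).

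Class I and class II levels were also set beside chosen partners, in 12 pairs picked after their values were seen. None passed after adjustment over the 12, and 5 had an unadjusted p under 0.05. H2-K1 had r = 0.782 with Irf7, an interferon-induced transcription factor (permutation p = 0.00862, adjusted p = 0.0911; rho = 0.762, permutation p = 0.00729; r = 0.715 without the 2 farthest hearts), and r = 0.733 with Nlrc5 (permutation p = 0.0170; rho = 0.741, permutation p = 0.0156). For Cd74 the corresponding values were r = 0.276 with Irf7 (permutation p = 0.432) and r = 0.632 with Nlrc5 (permutation p = 0.0380). Cd74 and the leukocyte phosphatase Ptprc gave r = 0.621 (permutation p = 0.0743), which fell to 0.320 without KO heart 4 and WT heart 3 and was -0.32 within the WT hearts and 0.959 within the KO hearts. In each of these pairs, the libraries and their depth are common to both genes.

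The other genes of the presentation machinery were counted by list, beside 51.1% of all rows called, 25.6% higher and 25.5% lower. In the list of other class I genes, 2 of 11 tested rose and 3 fell (median log2 fold change -0.13, beside 0.00 for all rows). Psmb10, a catalytic subunit of the immunoproteasome, lay between 38.8 and 49.9 CPM in WT and between 65.2 and 110 CPM in KO hearts, and rose by a log2 fold change of 1.11 (SE 0.11, adjusted p = 9.51e-07, edgeR). Its partner subunits Psmb8 and Psmb9 did not pass, at 0.09 and -0.08 (adjusted p = 0.688 and 0.698, edgeR).

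Psme1 and Psme2, the α and β subunits of the PA28 cap that opens the proteasome to antigen processing, both fell. Psme1 lay between 120 and 148 CPM in WT and between 46.2 and 67.5 CPM in KO hearts, a log2 fold change of -1.18 (SE 0.08, adjusted p = 1.09e-08, edgeR). For Psme2 the log2 fold change was -0.66 (SE 0.07, adjusted p = 1.22e-06, edgeR), and for both genes the hearts of the groups did not overlap. The other calls of this list were the chaperones Canx (-0.37, adjusted p = 3.76e-06, edgeR) and Pdia3 (0.27, adjusted p = 0.000643, edgeR). The peptide-loading bridge Tapbp was at 0.00 (SE 0.06, adjusted p = 0.964, edgeR).

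For the class II route, 1 of 8 tested genes rose and 3 fell (median log2 fold change -0.06), beside 25.6% and 25.5% of all rows. Ctsh, a lysosomal protease, fell by 0.73 on the log2 scale (SE 0.07, adjusted p = 1.25e-07, edgeR), lying between 57.3 and 70.6 CPM in WT and between 33.4 and 43.7 CPM in KO hearts. Ctsl, a further lysosomal protease, had a log2 fold change of -0.26 (SE 0.06, adjusted p = 0.00257, edgeR), and the remaining lower gene was Lgmn (-0.19, adjusted p = 0.0484, edgeR), a call lost without WT heart 1, 3 or 4 or KO heart 1, 2, 5 or 6. Ctss, the protease that trims Cd74 in antigen-presenting cells, was higher by 0.44 (SE 0.17, adjusted p = 0.0425, edgeR). That call was lost when WT heart 1, 2, 3, 5 or 6 or KO heart 1, 3 or 4 was left out (adjusted p up to 0.128, edgeR). H2-Oa and H2-Eb2 were removed by the filter, and no row was named H2-DMb1 or H2-DMb2. H2-DMa, a chain of the peptide-exchange factor, was at -0.06 (SE 0.20, adjusted p = 0.836, edgeR).

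Of the other class I and class I-like heavy chains, 5 of 15 could be tested, of which 1 rose and 1 fell (median log2 fold change 0.06), beside the same shares of all rows. Mr1, which presents vitamin metabolites to mucosal-associated T cells, rose by 0.54 (SE 0.08, adjusted p = 4.56e-05, edgeR), and Fcgrt, the neonatal Fc receptor that pairs with B2m, fell by 0.59 on the log2 scale (SE 0.05, adjusted p = 3.49e-08, edgeR). H2-Q6, H2-T3 and H2-T10 were removed by the filter, with H2-Q6 and H2-T10 at 0 counts in every heart, and no row was named H2-Q1, H2-Q2, H2-Q4, H2-Q7, H2-T22, H2-T23 or Cd1d1.

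Among 8 regulators of MHC transcription, 2 rose and 2 fell (median log2 fold change -0.10), beside 25.6% and 25.5% of all rows. Nlrc5, the class I counterpart of Ciita, rose by 0.83 (SE 0.22, adjusted p = 0.00524, edgeR), from 7.74 ± 2.15 CPM in WT to 13.8 ± 4.18 CPM in KO hearts (SD, n = 6 each), with its highest level in KO heart 4. Nfyc, a subunit of the Y-box factor NF-Y, rose by 0.52 (SE 0.06, adjusted p = 3.01e-06, edgeR), and Rfxank, a subunit of the X-box factor RFX, fell by 0.50 on the log2 scale (SE 0.08, adjusted p = 3.16e-05, edgeR). A further RFX subunit, Rfxap, was the other lower gene (-0.27, adjusted p = 0.0088, edgeR).

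Of 12 tested genes of interferon γ signalling and interferon response, 5 rose and 2 fell (median log2 fold change 0.27), again beside 25.6% and 25.5% of all rows. Ifngr1, the ligand-binding chain of the interferon γ receptor, lay between 72.9 and 92.8 CPM in WT and between 160 and 219 CPM in KO hearts, and rose by a log2 fold change of 1.10 (SE 0.08, adjusted p = 6.02e-09, edgeR). Jak1, the kinase bound to that chain, fell by 0.73 on the log2 scale (SE 0.07, adjusted p = 9.51e-08, edgeR). Irf8, a factor of the myeloid and dendritic lineages, rose by 0.62 (SE 0.10, adjusted p = 8.21e-05, edgeR). Ifng itself was removed by the filter on low counts. None of 5 tested costimulatory and inhibitory ligands passed in edgeR (median 0.24), 0 had an unadjusted p under 0.05, and 0 were called by DESeq2 or limma-voom.

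Cell markers give the composition beside which the member values stand. In whole tissue, fewer cells of a type and less RNA per cell cannot be told apart. Of 4 pan-leukocyte genes, 1 rose, beside 25.6% of all rows called higher. The list summed to 42.2 to 61.8 CPM in WT and 50.4 to 97.4 CPM in KO hearts. Ptprc was at 0.14 (SE 0.19, adjusted p = 0.574, edgeR) and Laptm5 at 0.20 (SE 0.17, adjusted p = 0.374, edgeR), while Coro1a, at 0.51, passed with all hearts (SE 0.19, adjusted p = 0.0378, edgeR), and not when WT heart 1, 2, 3, 5 or 6 or KO heart 1 or 4 was left out. KO heart 4, highest in the class II genes, was also highest in Ptprc (27.1 CPM), Laptm5 (40.1 CPM) and Coro1a (23.8 CPM). WT heart 3, the WT heart richest in class II message, held 13.7 CPM of Ptprc, within the WT range of 11.2 to 17.8. The part of leukocyte content in the member values was not tested.

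The macrophage and monocyte list (11 of 12 genes with a row) had 3 genes higher and 2 lower, beside 25.6% and 25.5% of all rows. The list summed to 266 to 367 CPM in WT and 287 to 442 CPM in KO hearts. Its most abundant genes were Csf1r, at -0.26 (SE 0.09, adjusted p = 0.0296, edgeR), lost without WT heart 3, 4 or 6 or KO heart 2, 3 or 6, and the complement genes C1qb and C1qa, at 0.13 and 0.17 (adjusted p = 0.546 and 0.298, edgeR). The higher genes were the monocyte chemokine receptor Ccr2, at 0.94 (SE 0.22, adjusted p = 0.00193), the phagocytic receptor Mertk, at 0.62 (SE 0.09, adjusted p = 3.23e-05), and the mannose receptor Mrc1, at 0.43 (SE 0.08, adjusted p = 0.000344), in the edgeR fit. The other lower gene was Adgre1, which encodes the F4/80 antigen, at -0.62 (SE 0.16, adjusted p = 0.00518, edgeR). For dendritic cells 2 of 6 tested markers rose and 1 fell, beside the same shares of all rows. The dendritic list summed to at most 42.4 CPM in WT and 41.1 CPM in KO hearts. Most of that sum was Zbtb46 alone, which averaged 29 CPM in WT and 28.2 CPM in KO hearts. Among its most abundant genes, Zbtb46 was at -0.04 (adjusted p = 0.736), Clec10a fell by 1.44 on the log2 scale (SE 0.15, adjusted p = 6.51e-07) and Clec9a was at 0.49 (adjusted p = 0.157), all in the edgeR fit. Clec10a is made by macrophages as well as by dendritic cells. The higher genes were Xcr1, a chemokine receptor of cross-presenting dendritic cells, at 2.92 (SE 0.43, adjusted p = 2.62e-05, edgeR), and Flt3, the growth factor receptor of dendritic cell precursors, at 1.78 (SE 0.39, adjusted p = 0.00103, edgeR). Xcr1 lay between 0 and 0.296 CPM in WT and between 0.815 and 1.65 CPM in KO hearts, Flt3 between 0.0787 and 0.566 and between 0.728 and 2.05 CPM. For both genes the groups did not overlap, which held for 30.1% of all rows. Both were low in WT hearts and passed the filter through their KO levels, so their difference is favoured by the filter. With a filter of at least 1 CPM in 6 libraries, 0 dendritic markers were called higher.

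Lymphocyte messages were scarce. The B cell markers summed to 1.66 to 4.88 CPM in WT and 1.82 to 4.18 CPM in KO hearts, with 1 of 4 tested higher. The T cell markers summed to 1.53 to 4.09 and 2.52 to 7.56 CPM, with 2 of 4 tested higher. Of all rows 25.6% were called higher. With a filter of at least 1 CPM in 6 libraries, 0 markers of either list were called higher. The higher T cell markers were Lat, a signalling adaptor of the T cell receptor, at 1.41 (SE 0.45, adjusted p = 0.0148, edgeR), and Cd8a, the α chain of the CD8 coreceptor, at 1.25 (SE 0.49, adjusted p = 0.0418, edgeR). The Cd8a call was lost without WT heart 2, 3 or 5 or KO heart 1, 4, 5 or 6, and over all alternatives the number of T cell markers called higher ran from 0 to 3. The higher B cell marker was Blk, which like Lat was low in WT hearts and passed the main filter through its KO levels. Ms4a1, Pax5, Cd3e and Cd3g, which define these lineages, were removed by the filter, and no marker of either list was at 0 in all hearts. Their most abundant genes, Cd79b, Cd79a and Blk for B cells and Cd4, Lat and Cd8a for T cells, each averaged under 2 CPM in both groups.

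All 6 fibroblast genes rose, beside 25.6% of all rows. They summed to 1244 to 1427 CPM in WT and 1899 to 3383 CPM in KO hearts. Among them were Dcn, at 0.63 (SE 0.08, adjusted p = 7.37e-06), Col3a1, at 1.43 (SE 0.32, adjusted p = 0.00328), and Col1a1, at 1.88 (SE 0.23, adjusted p = 3.91e-05), in the edgeR fit. Of 6 endothelial genes 3 rose and 1 fell, beside 25.6% and 25.5% of all rows. Pecam1 was at 0.29 (adjusted p = 0.000749), Kdr at 0.23 (adjusted p = 0.0340) and Cdh5 at 0.07 (adjusted p = 0.316) in the same fit. The Kdr call was lost without WT heart 2, 4, 5 or 6 or KO heart 1, 2, 5 or 6. Of 10 cardiomyocyte genes 1 rose and 5 fell, beside the same shares of all rows. Its most abundant genes were Myh6, at -0.20 (adjusted p = 0.0838), which passed without KO heart 3 (adjusted p = 0.00137), Tnnt2, at 0.03 (adjusted p = 0.793), and Myl3, at -0.30 (adjusted p = 0.00104), again in edgeR. The part of these shifts in the class I values was not tested.

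Set against Ptprc within each heart, as a description with no test, Cd74 was at a mean log2 ratio of 2.29 ± 0.47 in WT and 1.97 ± 0.18 in KO hearts (SD, n = 6 each). Tap1 was at 0.62 ± 0.30 and 0.95 ± 0.26, and B2m at 4.67 ± 0.39 and 4.8 ± 0.29. H2-Eb1 was at 1.28 ± 0.48 in WT and 1.11 ± 0.26 in KO hearts, a difference of -0.17. Without Ptprc, the mean log2 CPM of H2-Eb1 differed by -0.07 between KO and WT hearts. Its edgeR log2 fold change of 0.01 is another estimate and is not on the same footing.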

How the data were processed

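Poly(A)-selected ventricular RNA was sequenced from 6 WT and 6 KO hearts. The submitters' processing notes name HISAT2 2.0.5 and the build mm10, and counting was by HTSeq. The gene IDs are those of the C57BL/6NJ strain annotation, and member coordinates are given as deposited. The authors deposited raw read counts per gene and FPKM. Counts were tested in edgeR 4.0.16 (R 4.3.3: filterByExpr, TMM, robust quasi-likelihood fit over 17155 rows, Benjamini-Hochberg adjustment). Deposited FPKM served only for levels between genes, and for 72.7% to 73.8% of rows with at least 100 counts it rests on a length shorter than the table's. Exact permutation tests used log2 CPM with a prior count of 0.5. On simulated counts over 17155 rows, 191 of 200 rows changed by a log2 fold of 1 were recovered, with 10 false calls. That check held far fewer changed rows than the 51.1% called in the data, and larger changes than those of the members. It does not show how changes of the members' size would be recovered. Alternatives were DESeq2 1.42.0, limma 3.58.1, scalings, filters, a replicate block and leaving out hearts.

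The members and lists were chosen with earlier results of these data known. All members were named, with per pathway list up to 3 called genes with the largest change and a mean of at least 1 CPM, per marker list the 3 most abundant genes, and per class the 5 genes most alike. Genes named beyond this rule were chosen after their values were seen. The authors' comparison columns were not used. Each library came from its own mouse. No pair of replicates matched as closely as 1 library counted again would, the closest pair giving a chi-square of 7.41 per degree of freedom.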

Additional observations from a re-analysis of the deposited data

Results flagged for a closer look

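Within groups of 6 hearts, 10 of 98 sets of values had a highest or lowest heart whose gap to the next, as a share of the range, exceeded the 95% critical value of Dixon's test, where chance gives about 1 in 20. For the members these were H2-Eb1, with 73.1 CPM in KO heart 4 against 25.6 to 39.6 in the other KO hearts, and Cd74, with 125 CPM in KO heart 4 against 47.2 to 74.1. KO heart 4 was likewise apart for Coro1a, at 23.8 CPM against 11.4 to 15.3, and for Cd4, at 3.51 CPM against 1.23 to 2.05.

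Other hearts stood apart in single genes. Sdhaf4 was at 2.73 CPM in KO heart 1 against 2.25 to 2.41 in the other KO hearts. Fcgrt was at 104 CPM in WT heart 1 against 112 to 116, and Ifngr1 at 72.9 CPM in WT heart 2 against 86.2 to 92.8. Lat was at 0.93 CPM in WT heart 1 against 0.118 to 0.253, Cd79a at 1.15 CPM in KO heart 6 against 0.364 to 0.652, and Myh6 at 18600 CPM in KO heart 3 against 12500 to 14600.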

How the results depend on the processing

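Rows called over the whole table moved little under 22 alternatives (3918 to 4626 higher, 4029 to 4602 lower), and Sdhaf4 stayed between -3.51 and -3.34. Of the members, 0 were called without a filter beyond 1 count, and 2 (Tap1 and H2-K1) with a replicate block. Leaving out single hearts gave 0 to 1. Tap1 kept its direction throughout and lost its call without that filter (0.43, adjusted p = 0.0802), and its log2 fold change ran from 0.33 to 0.50 when single hearts were left out. In the block fit Tap1 was at 0.43 (adjusted p = 0.00264), H2-K1 at adjusted p = 0.0207 and B2m at adjusted p = 0.0577 (edgeR). Of the class pairs 0 passed with the block. That test flips the signs of 6 same-numbered differences and allows no p below 0.03125, so little could pass after adjustment. Its lowest p was 0.0625. Deviations of same-numbered WT and KO hearts correlated at -0.16 to 0.02, and 1 of 6 WT hearts correlated best with its own number. Those values do not show a pairing, and they cannot exclude one for single genes.

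Signs turned for members near 0. H2-Eb1 was at -0.0040 with upper-quartile scaling, -0.0626 with limma-voom and -0.0732 in the block fit, and ran from -0.29 to 0.10 when single hearts were left out. H2-Aa ran from -0.36 to 0.0456 in that way. With KO heart 3 and WT heart 6 both left out, a setting added after the data were seen, H2-Aa was at 0.0636, H2-Ab1 at 0.0395 and Tap2 at 0.00451. Between 0 and 8 class pairs passed when single hearts were left out, 8 without WT heart 4 and 0 in the other alternatives. Cd74, Ciita, H2-K1 and B2m kept their direction in all 22 alternatives. The causes were not tested. Ciita's 24 to 69 counts limit what its values can show.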
